A study of Mus musculus with 156 samples.

Results

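The genes described here are 10 imprinted genes, *Mest*, *Peg3*, *Dlk1*, *Ndn*, *Snrpn*, *Igf2*, *H19*, *Meg3*, *Cdkn1c* and *Plagl1*, measured in the mouse striatum after a single injection of 1 of 9 psychotropic drugs. All array probes annotated to these symbols were taken. They came to 18 of the 45279 probes tested and stood for 8 of the 10 genes, since no probe carried the symbol *Snrpn* or *H19* in the annotation used. *Mest* was chosen by its rise after haloperidol, so that all haloperidol values against vehicle are given as a description, with no test. The mice were C57BL/6J males, 6 to 10 weeks old by the labels and 8 to 10 by the methods of the study, and each Illumina MouseWG-6 array held striatal RNA (rostral caudate putamen and nucleus accumbens) pooled from 2 mice. There were 156 arrays, with 3 for each drug at each of 1, 2, 4 and 8 h after the injection.

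Bupropion, tranylcypromine and mianserin were given at 20 mg/kg, clozapine at 3 mg/kg, risperidone at 0.5 mg/kg and haloperidol at 1 mg/kg. These 6 drugs were on the first set of chips, together with saline, Tween 80 and naive mice. The naive mice were not injected, so that in a comparison of a drug with them the injection and the drug cannot be told apart. Diazepam at 5 mg/kg, buspirone at 10 mg/kg and hydroxizine at 10 mg/kg were on the second set (48 arrays), with saline of their own. The control of a drug was vehicle at the matching time on the same chip set, which meant 6 arrays (3 of saline and 3 of Tween 80) on the first set and 3 of saline on the second. Haloperidol, risperidone, clozapine and diazepam were suspended in Tween 80, so that for diazepam the solvent and the drug cannot be told apart on the second set.

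An imprinted gene is transcribed mainly from the copy inherited from one parent. *Mest* (also called *Peg1*), *Peg3*, *Dlk1*, *Ndn*, *Snrpn*, *Igf2* and *Plagl1* are expressed from the paternal copy, and *H19*, *Meg3* and *Cdkn1c* from the maternal one, with known exceptions in some brain cells. Many of them act on growth before birth, and *Mest* and *Peg3* are known for their part in maternal behavior. Both parental copies of an inbred strain have the same sequence, so these arrays show the total RNA of a gene and not its allele of origin.

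Signals are given on the log2 scale after quantile normalization, so that a difference of 1 is a doubling. The signal of one probe was not compared with that of another, since probes differ in brightness at equal RNA. As a stand-in for background, the 1504 probes of olfactory and vomeronasal receptor genes had a median mean signal of 7.80 and a 95th percentile of 8.00. Of the 18 probes, 12 lay above that percentile on average. The 6 others were all 3 probes of *Plagl1* (mean signals 7.72 to 7.91), 2 of the 4 of *Peg3* (7.74 and 7.89) and 1 of the 3 of *Meg3* (7.81), and for these a lack of change says little. All 8 measured genes of medium spiny neurons, *Drd1* and *Ppp1r1b* among them, lay above the percentile (mean signals up to 15.2). So did 12 of 12 leptomeningeal, 9 of 10 choroid plexus, 6 of 8 hypothalamic and 5 of 6 cortical markers. The percentile therefore does not set the striatum apart from neighbouring tissue. A probe was called when its adjusted p over all probes, from limma's moderated F test of the 4 times or moderated test of 1 time, was under 0.05.

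**Figure D1:**
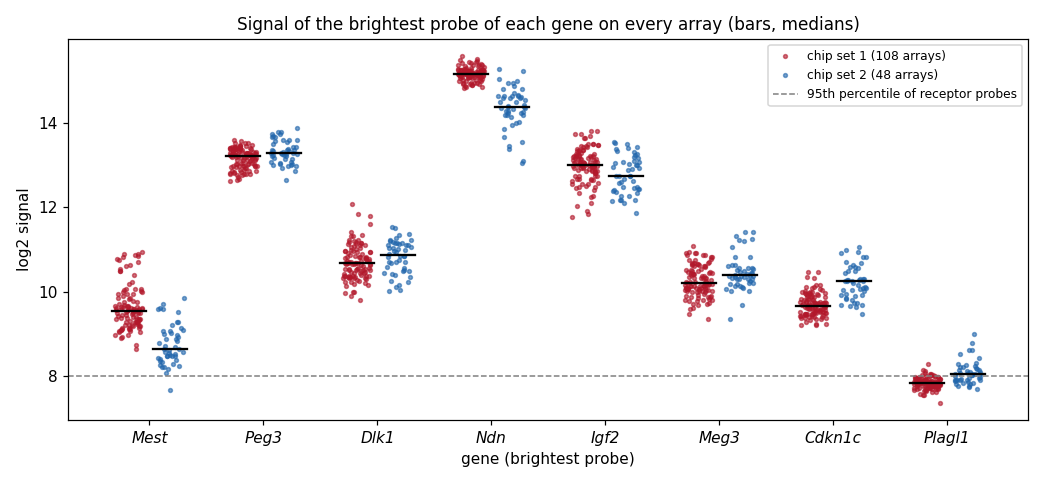
Signal (log2, y axis) of the brightest probe of each of the 8 genes (x axis) on every array of the first chip set (red) and of the second (48 arrays, blue), with medians as bars and the 95th percentile of receptor probes (8.00) as a dashed line. *Ndn* and *Mest* have lower medians on the second set, *Ndn* is more spread there, and *Plagl1* lies around the dashed line.

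*Mest* lies on mouse chromosome 6 and codes for a protein of the alpha/beta-hydrolase fold, and its last bases overlap *Copg2*, a coat protein gene on the other strand. RefSeq gives the gene an upstream start and, as a close pair, downstream ones. The 250 bases before the upstream start and before the first of the downstream pair are shown because *Mest* is the gene the results turn on. They are on the plus strand of GRCm38.p6, with capitals for the GC box, GGGCGG, a site bound by Sp factors.
Mest upstream start, chr6:30733256-30733505: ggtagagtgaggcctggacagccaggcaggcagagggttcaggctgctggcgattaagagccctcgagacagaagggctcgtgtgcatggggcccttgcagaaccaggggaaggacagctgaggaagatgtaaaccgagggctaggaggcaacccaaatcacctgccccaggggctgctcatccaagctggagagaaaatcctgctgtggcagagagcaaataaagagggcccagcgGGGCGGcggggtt
Mest downstream start, chr6:30737800-30738049: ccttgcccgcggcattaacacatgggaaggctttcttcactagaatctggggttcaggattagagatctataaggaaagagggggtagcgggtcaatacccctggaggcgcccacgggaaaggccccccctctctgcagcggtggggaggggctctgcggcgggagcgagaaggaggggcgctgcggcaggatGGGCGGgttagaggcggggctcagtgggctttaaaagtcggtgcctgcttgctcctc
Both stretches held 1 GC box on either strand, starting 13 and 57 bases before the start, and 32.7% of the 32851 RefSeq windows of this length held at least 1. The cAMP response element, TGACGTCA, was in neither (1.55% of windows), nor was its half-site TGACG (17.8%), the EGR site GCGTGGGCG (0.536%) or the CArG box (1.47%), and the half-site count includes windows with the full element. These are matches of letters, and no binding was measured.

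*Mest* had 3 probes, ILMN_2846904 (mean signal 9.37), ILMN_2642417 (8.58) and ILMN_2642418 (8.23). Which part of the transcript each one reads was not analysed here. Over the 36 comparisons of a drug with vehicle, the differences of the brightest probe correlated with those of the second at r = 0.939 and of the third at r = 0.877, as a description. The differences share vehicle arrays between drugs. The brightest probe is described first, and the 2 others stand beside it.

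In vehicle arrays of the first set the brightest *Mest* probe was nearly level over the 4 times. At 1 h its lowest, median and highest signals over 6 arrays were 9.03, 9.54 and 9.85, at 2 h 9.19, 9.43 and 9.59, at 4 h 9.27, 9.36 and 9.79, and at 8 h 9.10, 9.34 and 9.44. The naive arrays lay between 8.89 and 9.53. No *Mest* probe, and no other probe of the genes described, was called between vehicle and naive mice (0% of all probes were called), between Tween 80 and saline (0%), or between times in the control arrays of the first set (1.05%) or of the second (0.011%). At an unadjusted p under 0.05, limma's F test gave 1 of the 15 probes of the other genes between vehicle and naive mice. It gave 0 between Tween 80 and saline, and 3 between times on each set. Of all probes, 3.28% passed between vehicle and naive mice and 5.06% between Tween 80 and saline. Between times, 10.8% passed on the first set and 8.64% on the second. Of the *Mest* probes the test gave ILMN_2642418 between Tween 80 and saline, and that probe and the brightest between times on the second set.

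After haloperidol, an antagonist of the dopamine D2 receptor, the brightest *Mest* probe had signals of 9.98, 10.87 and 10.62 at 1 h, 10.81, 10.49 and 10.95 at 2 h, 10.18, 9.95 and 10.22 at 4 h, and 9.27, 9.22 and 9.18 at 8 h. All 9 arrays of the first 3 times lay above every vehicle array of their time, and the 3 of 8 h lay among the vehicle arrays. The differences from vehicle were 0.98, 1.34, 0.68 and -0.08 (SE 0.16 each, n = 3 against 6), which at 2 h is 2.53-fold. The second probe differed by 0.68, 0.98, 0.48 and 0.12 and the third by 0.44, 0.86, 0.13 and -0.01. Since haloperidol chose the gene, these values carry no test. Of all probes, 0.13% were called after haloperidol. The summed signal of blood markers was 14.61 to 15.14 at 4 h, above the vehicle range of 14.14 to 14.58. At 8 h that of cortical excitatory neurons was 14.10 to 14.32, above the vehicle range of 13.10 to 14.01. The microglial one was 12.93 to 13.07 at 8 h, below the vehicle range of 13.09 to 13.40. The part of these shifts in the *Mest* values was not tested.

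**Figure D2:**
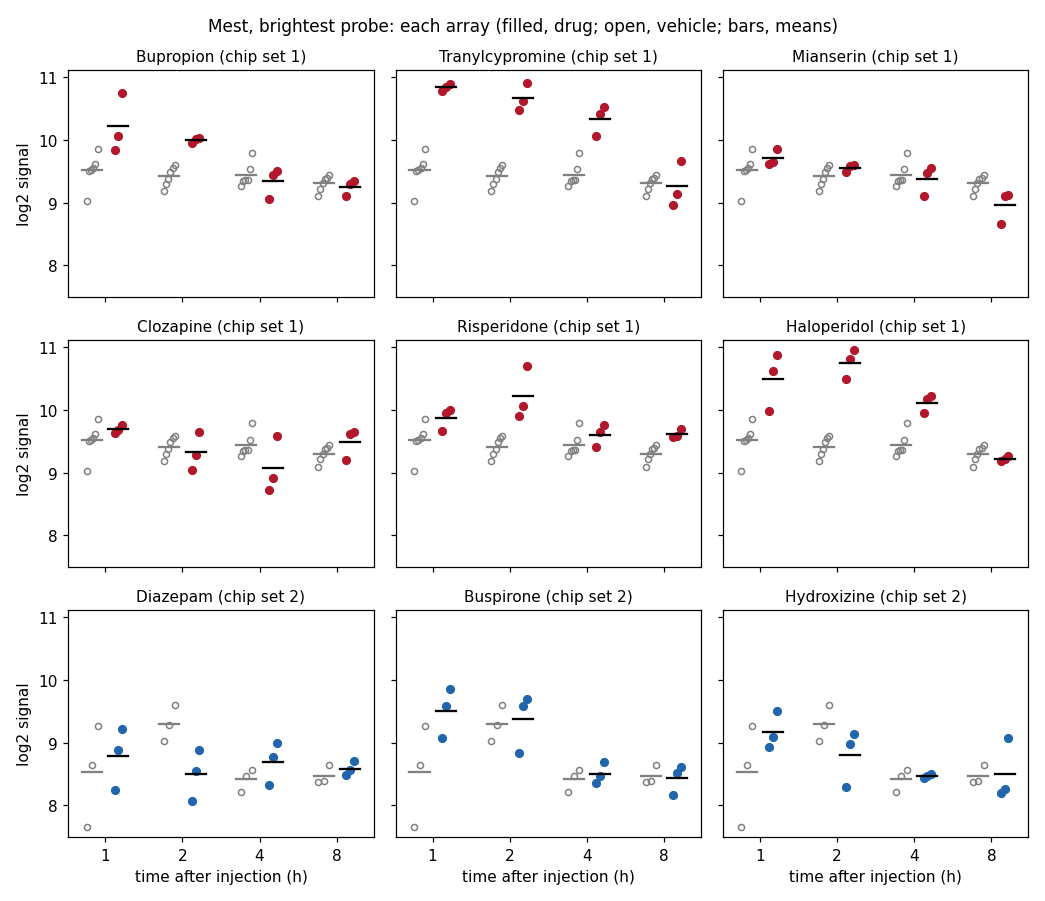
Signal of the brightest *Mest* probe (log2, y axis) on each array by time after the injection (h, x axis) in 9 panels, 1 per drug, with drug arrays filled (3 per time) and same-time vehicle arrays of the same chip set open (6 or 3 per time). Bars are means, and the 9 arrays of tranylcypromine at 1 to 4 h, like those of haloperidol, lie above all vehicle arrays of their time.

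After tranylcypromine, an inhibitor of monoamine oxidase, *Mest* rose at 1, 2 and 4 h, and at 8 h the arrays of its brightest probe fell on both sides of vehicle. The brightest probe had signals of 10.89, 10.79 and 10.84 at 1 h, 10.48, 10.62 and 10.90 at 2 h, 10.41, 10.53 and 10.06 at 4 h, and 8.97, 9.14 and 9.67 at 8 h. Every array of 1, 2 and 4 h lay above all 6 vehicle arrays of its time, while at 8 h 1 lay above and 1 below them. The differences from vehicle were 1.33, 1.25, 0.89 and -0.05 (SE 0.16, n = 3 against 6), or 2.51-fold at 1 h and 1.86-fold at 4 h. The adjusted p over the 4 times was 3.62e-15 for this probe, 2.37e-11 for the second and 9.75e-07 for the third (limma's moderated F test). These 3 were the only ones called among the 18 probes, and 1.59% of all probes were called after this drug.

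The second *Mest* probe differed from vehicle by 0.98, 0.78, 0.55 and -0.15 after tranylcypromine (SE 0.13), with 9 of 9 arrays of 1 to 4 h above the vehicle arrays. The third differed by 0.57, 0.64, 0.11 and -0.12 (SE 0.11), and its 3 arrays of 4 h (8.50, 8.49 and 8.34) lay inside the vehicle range of 7.96 to 8.53. All 3 probes were called at 1 h (0.126% of all probes were called at that time), all 3 at 2 h (0.197%), 2 at 4 h (0.448%) and none at 8 h (1.53%), where their unadjusted p missed 0.05 too. The change differed between the times, with adjusted p of 0.000255, 0.000613 and 0.00451 for the 3 probes (limma's F test of drug by time, 0.395% of all probes).

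The vehicle arrays of this comparison are also those of the haloperidol one that chose *Mest*. Against the naive arrays, which played no part in that choice, the brightest probe was higher after tranylcypromine by 1.47, 1.45, 1.17 and 0.10 (SE 0.19, n = 3 against 3). All 3 probes were called in that comparison as well, with adjusted p of 1.82e-15, 9.61e-10 and 0.000829 (limma's F test, 1.07% of all probes). With the chip of 6 arrays as a fixed block, the differences of the brightest probe from vehicle were 1.12, 1.18, 0.99 and 0.29 (adjusted p = 2.41e-15). None of the 12 tranylcypromine arrays shared a chip with a vehicle array of its time, so that values within a chip could not be given. Leaving out any replicate of tranylcypromine, saline or Tween 80 gave 1.24 to 1.38 for the change at 1 h.

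*Copg2*, which overlaps the end of *Mest*, was measured by 2 probes and was not called after tranylcypromine. Its brighter probe (mean signal 9.51) differed from vehicle by 0.05, 0.01, -0.15 and -0.13 (adjusted p = 0.93, limma's F test). Marker genes of choroid plexus, leptomeninges, hypothalamus, cortex and blood gave no call after this drug, while 3 of 6 of microglia and 1 each of 8 of medium spiny neurons, 8 of endothelium, 6 of astrocytes and 5 of oligodendrocytes were called. The summed microglial signal was 13.15 to 13.22 at 1 h against 12.98 to 13.28 in vehicle, and lower by 0.22 at 4 h, where the groups overlapped, and by 0.50 at 8 h, where they did not. The summed endothelial signal was 13.38 to 13.49 at 4 h, below the vehicle range of 13.60 to 13.73. That of cortical excitatory neurons was 13.42 to 13.77 at 1 h, just below the vehicle range of 13.78 to 14.55. The part of these shifts in the *Mest* values was not tested.

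**Figure D3:**
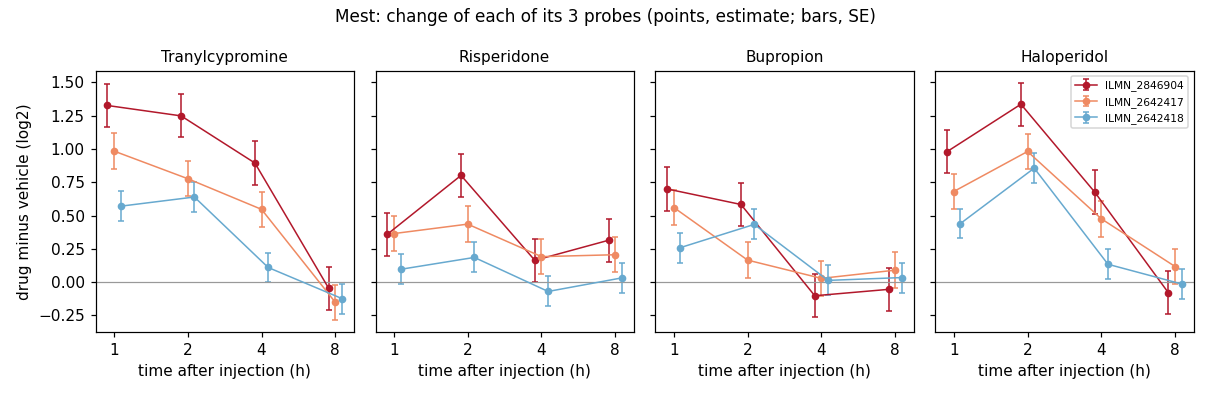
Difference from vehicle (log2, y axis) of the 3 *Mest* probes at 1, 2, 4 and 8 h (x axis) after tranylcypromine, risperidone, bupropion and haloperidol, with SE as bars (n = 3 against 6). After tranylcypromine the differences of the brightest probe are 1.33, 1.25, 0.89 and -0.05, and after risperidone the highest is 0.80 at 2 h.

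After risperidone, an antagonist of serotonin and dopamine receptors, *Mest* rose at 2 h. The brightest probe had signals of 10.00, 9.67 and 9.94 at 1 h, 10.06, 10.69 and 9.90 at 2 h, 9.64, 9.40 and 9.76 at 4 h, and 9.59, 9.70 and 9.56 at 8 h. The 3 arrays of 2 h and the 3 of 8 h lay above all vehicle arrays of their time, 2 of 3 did so at 1 h and none at 4 h. The differences were 0.36, 0.80, 0.16 and 0.31 (SE 0.16), and the adjusted p over the 4 times was 0.00182 for this probe and 0.0397 for the second (limma's F test, 1.22% of all probes). The third probe was not called (adjusted p = 0.936), with differences of 0.10, 0.19, -0.07 and 0.03. At 2 h alone the brightest probe was called (adjusted p = 0.0044, limma, 0.298% of all probes), which is 1.74-fold. Whether the change differed between times was not shown (adjusted p = 0.729). The summed signal of blood markers was 14.15 to 14.34 at 2 h, below the vehicle range of 14.49 to 14.94, and lay below vehicle at 1 h as well, and 1 of 8 endothelial markers was called after this drug. The part of these shifts in the *Mest* values was not tested.

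The risperidone call rested on few arrays. Without risperidone replicate 2, whose 2 h array had the signal of 10.69, the change at 2 h was 0.56 and the adjusted p 0.112. The second probe's call was lost without any one of risperidone replicates 1, 2 and 3, saline replicates 1 and 3, and Tween 80 replicates 1 and 3 (adjusted p 0.0854 to 0.307). With chip as a fixed block it was lost as well (0.0735), while that of the brightest probe was kept (0.000424). Against naive mice the brightest probe was higher by 0.50, 1.01, 0.43 and 0.46, with an adjusted p of 6.45e-05, and the second was not called at 0.0854 (limma's F test, 0.57% of all probes). That call held without each risperidone replicate (adjusted p 0.000284 to 0.00351). Risperidone was suspended in Tween 80. With Tween 80 arrays only as the control the brightest probe stayed called, and with saline only it did not (adjusted p = 0.0763).

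After bupropion, which blocks the uptake of dopamine and noradrenaline, the brightest *Mest* probe had signals of 9.83, 10.06 and 10.74 at 1 h and 10.02, 10.03 and 9.95 at 2 h. The 3 arrays of 2 h and 2 of those at 1 h lay above all vehicle arrays, and at 4 and 8 h none did. The differences were 0.70, 0.58, -0.10 and -0.05 (SE 0.16), and without bupropion replicate 3 that of 1 h was 0.43. At 2 h the summed signal of choroid plexus markers was 14.55 to 16.09, above the vehicle range of 12.95 to 14.15, and its part in the *Mest* values was not tested. No probe of the array was called after bupropion (0%), and the brightest *Mest* probe had an adjusted p of 0.237 and an unadjusted p of 1.57e-05. Against naive mice it was called (adjusted p = 0.00747, limma's F test, 0.042% of all probes), with differences of 0.84, 0.79, 0.17 and 0.09. That call was lost without bupropion replicate 2 (adjusted p = 0.0723) or replicate 3 (0.199), and the 2 other probes were not called (0.576 and 0.93).

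Mianserin and clozapine gave no called *Mest* probe, against vehicle (3.26% and 0.0508% of all probes were called) or against naive mice (1.17% and 0.0552%). The brightest probe differed from vehicle by 0.19, 0.14, -0.06 and -0.34 after mianserin and by 0.18, -0.09, -0.36 and 0.18 after clozapine (SE 0.16). The clozapine arrays at 4 h had signals of 9.58, 8.92 and 8.72, so that 2 lay below the vehicle arrays. For mianserin the third probe had an unadjusted p of 0.0273 (adjusted p = 0.274, limma's F test) and a difference of 0.33 at 2 h.

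On the second set of chips the *Mest* signals were more spread and lower, with a median of 8.64 over 48 arrays against 9.55 over those of the first. The vehicle arrays differed too, with means of 9.51, 9.42, 9.44 and 9.30 at the 4 times on the first set and of 8.53, 9.31, 8.42 and 8.47 for saline on the second. The saline arrays at 1 h had signals of 7.66, 9.27 and 8.64, and the residual SD of the probe was 0.38 against 0.24 on the first set. After buspirone, an agonist of the serotonin 1A receptor, the signals at 1 h were 9.86, 9.08 and 9.59, a difference of 0.98 (SE 0.29). After diazepam, which acts on GABA-A receptors, the signals at 2 h were 8.08, 8.55 and 8.88, all below the saline arrays of 9.02 to 9.61, a difference of -0.80. After hydroxizine, a histamine H1 antagonist, the differences were 0.65, -0.50, 0.05 and 0.04. No *Mest* probe was called after any of these drugs, with adjusted p of 0.41 for diazepam, 1.00 for buspirone and 0.864 for hydroxizine at the brightest probe (limma's F test, where 0.00221%, 0.00442% and 0% of all probes were called). With 1 spread fitted for both chip sets, the brightest *Mest* probe was called after diazepam, along with probes of *Ndn*, *Meg3* and *Cdkn1c*, and 14.7% of all probes were called in that fit.

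The genes whose pattern was most like that of *Mest* were searched among the brightest probes of 19056 other genes, by the correlation of the 36 differences from vehicle. They were *Egr4* (r = 0.863), *Fosb* (0.859), *Egr2* (0.81), *Rem2* (0.807), *Slc25a25* (0.80), *Per1* (0.774), *Flrt3* (0.772), *Peli1* (0.771), *Sertad1* (0.771) and *Phlda1* (0.766). Over the 32 differences without haloperidol, 6 of these 10 were again among the first 10, led by *Egr4* (0.872), *Fosb* (0.828) and *Egr2* (0.81). *Rnd3*, *Coq10b*, *Dusp1* and *Asb4*, the last itself an imprinted gene, completed that list (0.749 to 0.773). Over the 20 differences of the first set without haloperidol, 3 of the first 10 remained, *Egr4*, *Fosb* and *Peli1*. Among the 10 of that list was also *Inpp5f* (0.792), another imprinted gene. *Egr4* and *Egr2* code for zinc finger transcription factors and *Fosb* for a subunit of AP-1. These values are a description over comparisons that share arrays, with no test. Of the 7 other genes described here, the brightest probes correlated with *Mest* between -0.59 for *Cdkn1c* and 0.43 for *Ndn*.

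**Figure D4:**
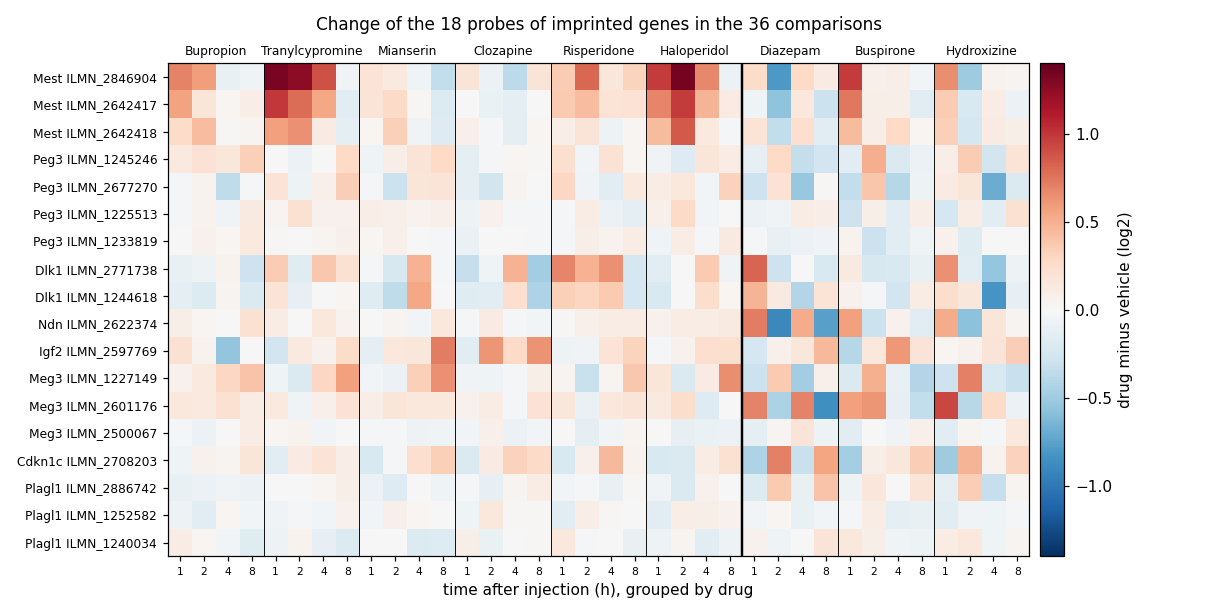
Difference from vehicle (log2, colour, blue for lower and red for higher) of the 18 probes (rows) in the 36 comparisons (columns, grouped by drug and ordered by time in h), with a thick line between the chip sets. The 3 *Mest* rows are red after tranylcypromine and haloperidol at 1 and 2 h, while the other rows show their largest values right of the thick line.

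The 15 probes of the other genes gave no call against vehicle after any of the 8 drugs tested (limma's F test without a chip block). At an unadjusted p under 0.05 there were 0 after bupropion and tranylcypromine, 1 each after mianserin, clozapine, risperidone, buspirone and hydroxizine, and 3 after diazepam. By comparison, 4.43%, 11.1%, 13.5%, 4.45%, 8.50%, 3.96%, 4.92% and 13.1% of all probes passed it after bupropion, tranylcypromine, mianserin, clozapine, risperidone, buspirone, hydroxizine and diazepam. The median size of the 60 differences from vehicle of these probes was 0.0747 after tranylcypromine, against 0.0769 over all probes. After diazepam it was 0.201 against 0.127, after buspirone 0.148 against 0.104 and after hydroxizine 0.165 against 0.111. After risperidone it was 0.101 against 0.0724 and after haloperidol 0.104 against 0.0704. After bupropion, mianserin and clozapine it was 0.0834, 0.0807 and 0.0703, against 0.0708, 0.0785 and 0.0700. The median residual SD of the 18 probes was 0.207 on the first set and 0.288 on the second, against 0.142 and 0.189 over all probes.

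*Igf2* is a growth factor ligand of the insulin family, which in the adult brain comes largely from the leptomeninges and choroid plexus. Its probe had signals from 11.78 to 13.82 on the first set, with a median of 13.01 and a residual SD of 0.41. After mianserin at 8 h the signals were 13.01, 13.23 and 13.82 against 11.78 to 13.21 in vehicle, a difference of 0.72 (adjusted p = 0.195, limma). After clozapine at 2 h they were 13.64, 13.50 and 13.48, a difference of 0.61, with 2 of 3 above all vehicle arrays. Over the 4 times *Igf2* was the gene with the smallest unadjusted p after clozapine among these 15 probes (0.0224, adjusted p = 1.00, limma's F test).

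Within groups, *Igf2* moved with the markers of leptomeningeal fibroblasts. The deviations of an array from the mean of its group were compared with those of the summed signal of 12 such markers, *Dcn*, *Col1a1* and *Slc6a13* among them. Pearson's r was 0.826 and Spearman's rho 0.80 over the arrays of the first set, and 0.92 and 0.914 over the 48 of the second (permutation test within groups, p = 1e-05 in each case, the smallest that 100000 resamples can give, adjusted p = 0.00012 over 48 relations). With the 2 arrays farthest out on the marker axis left out, r was 0.804 and 0.909, and with the means of the chips removed too, 0.911 and 0.886. Taken over all times, the markers' summed signal lay between 12.22 and 13.30 in vehicle arrays of the first set. It lay between 12.34 and 13.16 after mianserin and between 12.55 and 13.42 after clozapine. The medians were 12.92 and 13.08 after these drugs, against 12.77 for saline of that set and 12.83 for Tween 80. At 8 h alone the vehicle range was 12.22 to 12.98. The markers were not compared at single times after mianserin or clozapine, and their part in the *Igf2* values was not tested. In pooled tissue, more cells of a type and more RNA per cell cannot be told apart.

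*Cdkn1c* codes for p57, an inhibitor of cyclin-dependent kinases. Its vehicle signals on the first set lay between 9.21 and 10.48. On the second set the saline means were 10.57, 9.93, 10.30 and 9.86 at the 4 times. Those saline arrays, 3 per time, were the control of both diazepam and hydroxizine, so that the differences of the 2 drugs are not independent. The part of the saline means in these differences was not tested. The differences from vehicle on the second set were -0.43, 0.71, -0.31 and 0.55 after diazepam and -0.49, 0.48, 0.05 and 0.33 after hydroxizine (SE 0.30), and none was called. It moved with the choroid plexus markers on the first set (r = 0.469, rho = 0.375, adjusted p = 0.00211 and 0.00946, permutation tests), and r was 0.447 without the 2 farthest arrays and 0.566 with chip means removed. On the second set r was 0.295 (adjusted p = 0.289, permutation test). With the leptomeningeal markers r was 0.278 on the first set and 0.617 on the second (adjusted p 0.046 and 0.00254, permutation tests), and 0.408 and 0.256 with chip means removed.

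*Dlk1* codes for a transmembrane protein with EGF-like repeats and neighbours *Meg3* in one imprinted domain. Its brighter probe had signals of 11.17, 10.95 and 11.85 after risperidone at 1 h and of 11.35, 10.78 and 11.32 at 4 h, against vehicle ranges of 10.00 to 11.19 and 10.13 to 11.18. The groups overlapped at both times. The differences were 0.68 and 0.64 (SE 0.27), and over the 4 times the unadjusted p was 0.00415 and the adjusted p 0.175 (limma's F test). With chip as a block the probe was called, with an adjusted p of 0.00237 for a fixed block (2.05% of all probes) and 0.0173 for a random one (1.95%). The dimmer probe differed by -0.82 at 4 h after hydroxizine (SE 0.19), with 3 of 3 arrays below the saline arrays, and was not called (adjusted p over the 4 times 0.864).

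*Dlk1* moved with the markers of neuropeptide neurons of the hypothalamus, of which 8 were measured, *Avp*, *Oxt* and *Hcrt* among them. Within groups, r was 0.71 and rho 0.692 on the first set, and 0.698 and 0.706 on the second (permutation test within groups, p = 1e-05 in each case, adjusted p = 0.00012). Without the 2 farthest arrays r was 0.715 and 0.684, and with chip means removed 0.763 and 0.779. The summed signal of these markers reached 15.10 after risperidone at 1 h and was 13.78 to 14.49 at 4 h, against 12.17 to 14.69 and 11.78 to 13.92 in vehicle. Those are the times of the higher *Dlk1* values. The part of the markers in them was not tested.

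In the same comparison *Mest* had no adjusted p under 0.05 with any of the 3 lists on either set (permutation tests). It was not compared with the other lists, those of microglia, endothelium, cortex and blood among them. With the hypothalamic markers r was -0.08 (p = 0.449, adjusted p = 0.654) and 0.03 (p = 0.87, adjusted p = 0.908, n = 48 arrays). With the leptomeningeal ones it was 0.06 (p = 0.622, adjusted p = 0.746) and -0.29 (p = 0.0569, adjusted p = 0.195, permutation tests). With the choroid plexus markers r was -0.003 and 0.12. In all, 11 of the 48 relations had an adjusted p under 0.05 by both Pearson's and Spearman's measure. Those not given above were, on the first set, *Igf2* with choroid plexus (r = 0.431) and *Ndn* with hypothalamus (0.315). On the second set they were *Dlk1* and *Ndn* with leptomeninges (-0.449 and -0.386). With chip means removed these 2 were -0.403 and 0.189.

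**Figure D5:**
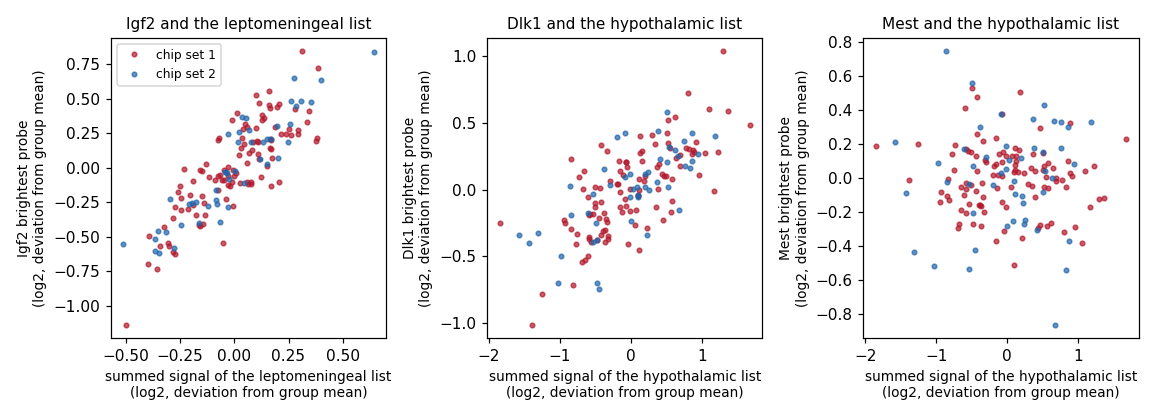
Deviation from the group mean of the brightest probe of *Igf2*, *Dlk1* and *Mest* (log2, y axes) against that of the summed signal of leptomeningeal or hypothalamic markers (log2, x axes), 1 point per array, red for the first chip set and blue for the second (48). The points rise for *Igf2* (r = 0.826 and 0.92) and *Dlk1* (r = 0.71 and 0.698) and show no trend for *Mest* (r = -0.08 and 0.03).

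*Meg3*, a long noncoding RNA expressed from the maternal copy, had 2 probes above the percentile. The brighter one differed from vehicle at 8 h by 0.58 after tranylcypromine, 0.63 after mianserin and, with no test, 0.65 after haloperidol (SE 0.26). In each of the 3, 1 of 3 arrays lay above all vehicle arrays, which spanned 9.35 to 10.67, and the probe was not called. The 3 differences share those vehicle arrays, whose mean was 9.86 at 8 h against 10.31, 10.41 and 10.01 at 1, 2 and 4 h. Against naive mice the brighter probe had an unadjusted p of 0.705 after tranylcypromine and 0.788 after mianserin (limma's F test over the 4 times). The other of these 2 *Meg3* probes had signals from 9.27 to 10.29 on the first set and from 7.76 to 10.43 on the second, with residual SDs of 0.22 and 0.59.

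*Ndn*, a protein of the MAGE family found in neurons, was steady on the first set. Its signals there ran from 14.82 to 15.59, and its residual SD was 0.15, against 0.49 on the second set. There the saline signals at 1 h were 13.06, 14.26 and 14.39, and at 8 h 14.60, 14.64 and 14.65. Diazepam differed from saline by 0.72, -0.90, 0.52 and -0.76 (SE 0.36), with 3 of 3 arrays below saline at 2 and at 8 h and an adjusted p of 0.282 (limma's F test). Those arrays had signals of 13.38, 13.94 and 14.59 at 2 h and 13.86, 14.29 and 13.46 at 8 h. Of the 18 probes, 16 had the larger residual SD on the second set, as had 82.7% of all probes.

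*Peg3*, a zinc finger protein, had 1 probe well above background at a mean of 13.2 and another at 10.0. Over the arrays of the first set the brighter one ran from 12.62 to 13.61. On that set the difference of largest size for either was -0.36, at 4 h after bupropion, and that on the second was -0.69 at 4 h after hydroxizine, for the dimmer one (SE 0.25, adjusted p = 0.917, limma), with 3 of 3 arrays below saline. *Plagl1*, a zinc finger transcription factor, had no probe above the percentile, and none of its probes was called. For *Snrpn*, 4 probes carried the name of *Snurf*, the reading frame that shares its transcript. None of them was called after the 8 drugs tested, the brightest (mean signal 15.6) differed from vehicle by at most 0.11 in size on the first set, and the largest value of the 4 was 0.40 after diazepam at 2 h.

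Among 58 other imprinted genes listed from knowledge of the field, 51 had a probe. By the brightest probe, 2 rose after tranylcypromine, 2 fell after mianserin and 1 rose after risperidone, and none was called after the other 5 drugs tested. These counts out of 51 genes stand beside 1.59%, 3.26% and 1.22% of all probes called after the same drugs. With 1 spread fitted for both chip sets, 12 of the 51 were called after diazepam, where 14.7% of all probes were. *Zdbf2*, a zinc finger gene, rose by 0.48 at 8 h after tranylcypromine (SE 0.12, adjusted p over the 4 times 3.9e-05). *Inpp5f*, an inositol phosphatase, rose by 0.41 at 1 h (SE 0.11, adjusted p = 0.0192). After mianserin *Rtl1*, a gene derived from a retrotransposon, fell by 0.60 and *Kcnq1ot1*, a long noncoding RNA, fell by 0.48 at 2 h. Their adjusted p over the 4 times were 0.00461 and 0.0104 (limma's F test). At 2 h alone they were 0.0486 and 0.111 (limma's moderated test), so that *Kcnq1ot1* was not called there. *Ddc*, which codes for the decarboxylase that makes dopamine and serotonin, rose by 0.68 at 4 h after risperidone. Its other probe rose by 0.58 at 1 h. Their adjusted p over the 4 times were 0.017 and 0.000993 (limma's F test). At those single times neither was called (0.0648 and 0.235, limma's moderated test).

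With all 123 probes of these genes, 2 more genes were called. A probe of *H13*, a signal peptide peptidase, fell by 0.62 after mianserin (4 h) and by 0.50 after risperidone (2 h; SE 0.11 in each case, adjusted p over the 4 times 1.92e-09 and 3.55e-05, limma's F test). A probe of *Ube3a*, a ubiquitin ligase, fell by 0.63 at 4 h after risperidone (adjusted p over the 4 times 0.045, limma's F test). The *H13* and *Zdbf2* calls held without each replicate of the drug and vehicles in turn. When arrays were scaled to a common median instead, *Zdbf2* differed by 0.21 (adjusted p = 0.325) and the *H13* call after risperidone was lost (0.0695), as were all other calls here except that of *H13* after mianserin. The *Rtl1* call was lost without mianserin replicate 1 (adjusted p = 0.142), and that of *Kcnq1ot1* without mianserin replicate 1 or 2 (0.118 and 0.0547). The brighter *Ddc* probe lost its call without risperidone replicate 3 (0.456), saline replicate 3 or Tween 80 replicate 2, and the other without risperidone replicate 1. *Inpp5f* kept its call in 3 of 9 such fits and *Ube3a* in 1 of 9.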

How the data were processed

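The authors deposited log2 signal for 45281 probes of 156 arrays in 2 tables, 1 without normalization and 1 quantile normalized by the authors. Per the methods, signals came from BeadStudio and were background subtracted. Whether the table without normalization holds that step is not given in the sources used here, and its array medians ran from 6.92 to 9.21. No detection p-values were used, and the number of arrays limits the precision. No column of another series was present.

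Quantile normalization of the raw table used all arrays and limma 3.58.1 (R 4.3.3, statmod 1.5.0), after 2 probes lacking a value had been dropped. A model with 1 mean per drug, time and chip set was fitted to each chip set with its own spread (72 and 32 residual degrees of freedom) and an intensity trend. Drugs were tested by moderated F over the 4 times and by moderated tests of 1 time, and p-values were adjusted by Benjamini and Hochberg over all 45279 probes at 5%. The labels and methods give each array its own pool of 2 mice.

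Genes were named from the platform annotation (34883 probes with 1 symbol, 18 with several, 10378 with none). The named genes are all probes of the 10 genes, other imprinted genes called after a drug other than haloperidol (up to 10), and the 10 most like *Mest* with and without haloperidol. The genes, lists, tests and the separate spreads were chosen with earlier results of these data known. Marker lists covered medium spiny neurons, choroid plexus, leptomeninges, hypothalamus, cortex, endothelium, blood, astrocytes, oligodendrocytes and microglia. Relations with the imprinted genes were computed for choroid plexus, leptomeninges and hypothalamus only, and were chosen after the values were seen. Promoter windows came from RefSeq (GRCm38.p6), which held 8 of the 10 genes.

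Deviations from group means correlated at -0.006 between arrays that share a replicate number and at 0.003 otherwise, and at 0.237 between arrays on the same chip. Within a condition the median correlation was 0.987, and no 2 arrays were identical. Alternatives were chip as a block, a replicate block, 1 spread, other normalizations and controls, filters, and leaving out replicates. The test was also run on simulated data with independent noise in each array. Such data lack the correlation within chips, so that they cannot show the error rate under it.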

Additional observations from a re-analysis of the deposited data

Results flagged for a closer look

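The change of *Mest* after tranylcypromine differed between the 4 times for all 3 probes, with adjusted p of 0.000255 for ILMN_2846904, 0.000613 for ILMN_2642417 and 0.00451 for ILMN_2642418 (limma's F test of drug by time). In the 6 vehicle arrays of the first chip set, a single array stood apart from the others for 2 of 72 combinations of a probe and a time, where chance gives about 1 in 20, or 3.6. One was Tween 80 replicate 2 at 4 h, with a signal of 8.97 for *Mest* ILMN_2642417 against 8.58 in the nearest array. The other was Tween 80 replicate 1 at 8 h, with 9.61 for *Peg3* ILMN_2677270 against 9.76 in the nearest.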

How the results depend on the processing

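The count of 3 probes called after tranylcypromine, all of *Mest*, was the same under all 12 other settings and all 9 fits without a replicate, against vehicle, and under 10 settings and 3 fits against naive mice. With the replicate block it was also 3, and the block moved no count of calls by over 1.5 times. After risperidone the count of 2 became 0 with 1 model of all groups, with median scaling and with saline only as control, and 1 with Tween 80 only. With chip as a random block it was 3 and as a fixed block 2, by *Mest* ILMN_2846904 and *Dlk1* ILMN_2771738 in both and the second *Mest* probe in the former. Without a replicate it ranged from 0 to 2. Against naive mice the count of 1 for risperidone became 2 with chip as a fixed block, by *Dlk1* ILMN_2771738, and as a random block, by the second *Mest* probe, and that of 1 for bupropion became 0 with 1 model and ranged from 0 to 1 without a replicate. With 1 model, 4 probes rather than 0 were called after diazepam (*Mest* ILMN_2846904, *Ndn* ILMN_2622374, *Meg3* ILMN_2601176 and *Cdkn1c* ILMN_2708203), where 14.7% of all probes and 12 of 51 other imprinted genes were called, and 3 rather than 0 between times on the second set (*Mest* ILMN_2846904 and ILMN_2642418, and *Ndn* ILMN_2622374), where 5.95% were. The cause was not tested. Of the differences of the 3 *Mest* probes after tranylcypromine, risperidone and bupropion, some between -0.15 and 0.03 changed sign with chip as a block, such as -0.05 for the brightest probe at 8 h after tranylcypromine, which became 0.29 with a fixed and 0.07 with a random block. No difference of a called probe at the time of its largest change did. The *Mest* difference after haloperidol at 2 h ranged from 1.14 to 1.76 over the settings. Probes near background limit what could be seen for *Plagl1*.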
